A study of Oryctolagus cuniculus with 16 samples.

Results

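Skeletal muscle genes were examined in femoral head tissue of rabbits with an induced form of Perthes disease, a childhood condition in which the head of the femur loses its blood supply. The members are *ASB5*, *MYH6*, *CHRNE*, *ACTA1*, *CKM*, *MB*, *TTN*, *NEB*, *MYBPC1* and *TNNT3*. They were chosen by their values in the same contrast of Perthes with control that is described here, so their levels and fold changes are a description and carry no test. By gene symbol, 9 of the 10 members had a row among the 20255 gene rows, 8 of these passed the filter on low counts, and *TNNT3* had no row under that symbol. The Perthes group was 5 rabbits whose hip was opened at 8 weeks of age, whose femoral neck was tied off with a non-absorbable suture and whose ligamentum teres, the ligament that carries vessels to the head, was cut. The control group was 3 rabbits labelled wild type. Per the paper's methods the rabbits bought for the study were wild type, and no other genotype is named for the Perthes group. Strain, the age of the controls, whether they had a sham operation and the time between operation and sampling were not given in the sources used here, so the operation and the disease it produces cannot be told apart. Total RNA freed of ribosomal RNA was sequenced from each rabbit, and the libraries held 26757087 to 29461482 counts.

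Skeletal muscle contracts when thick filaments of myosin pull on thin filaments of actin inside the sarcomere, the repeating unit of the muscle fibre. Titin and nebulin are giant proteins that set the length of these filaments, creatine kinase and myoglobin supply energy and oxygen, and the acetylcholine receptor of the neuromuscular junction starts each contraction. None of these is a bone protein, and muscle lies outside the femoral head, although it attaches nearby. The tissue of these libraries read as bone and cartilage, since *COL1A1*, the main collagen of bone, held 1322462 to 3842809 counts and *COL2A1*, the collagen of cartilage, held 858863 to 3204675. The defining genes of a muscle fibre ran from near 0 to well above it. *TTN* had 63 to 1539 counts over the 8 libraries, *MYBPC1* had 80 to 690, and desmin (*DES*), which smooth muscle also makes, had 46 to 125. Myoglobin (*MB*) had 1 to 2 counts in each Perthes library and 0 to 4 in each control library. The fast alkali light chain of myosin (*MYL1*) had 0 to 5 counts in 7 libraries and 52 in the library of control rabbit 3. Whether the counts of the members came from muscle fibres in the sampled tissue was not tested.

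The members did not move as a group. *ASB5*, *MYH6* and *CHRNE* had higher group means in Perthes, *ACTA1*, *TTN*, *CKM* and *NEB* had higher group means in control, and the controls of *MYBPC1* lay within its Perthes range. Without the library of control rabbit 3 the fold change of *CKM* and *NEB* turned towards Perthes, and that of *ACTA1* and *TTN* kept its direction at -0.06 and -0.30 on the log2 scale. The median log2 fold change (Perthes over control) of the 8 members that passed the filter was 0.04, against 0.02 over all 15305 genes tested. Every Perthes library lay above every control library for 2 members, *ASB5* and *CHRNE*, and no member was lower in every Perthes library. Over all genes tested, 11.2% had every Perthes library above every control library. As the members were selected on this contrast, nothing is read from that count. In bulk tissue, fewer cells of a type and less RNA per cell cannot be told apart, and this holds for every level given here.

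**Figure D1:**
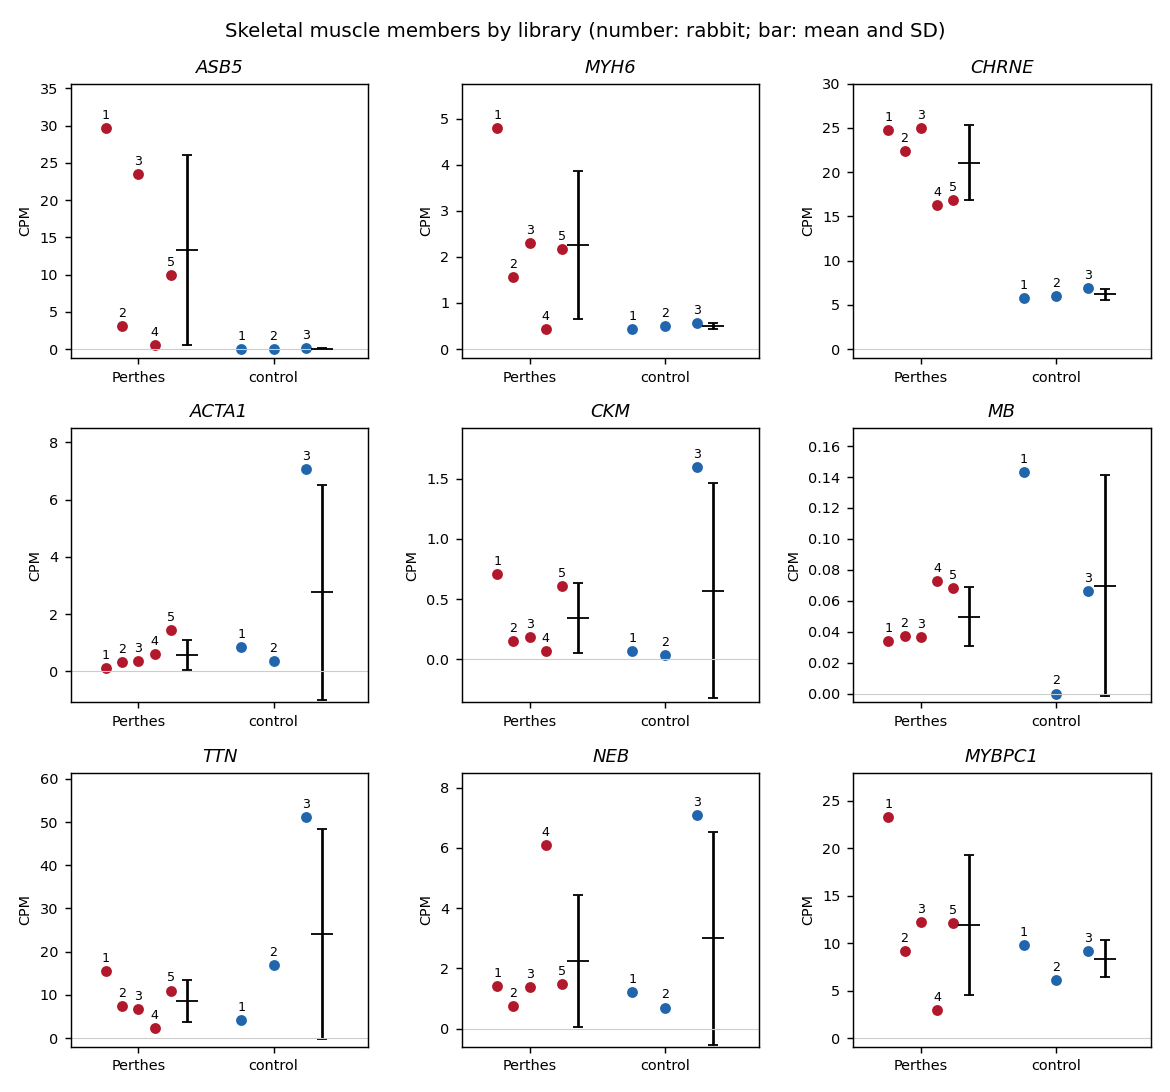
CPM (counts scaled to the size of the library by TMM factors) of the 9 listed members in 5 Perthes and 3 control libraries. Each point is 1 rabbit with its number, the bar beside each group is the mean with its SD, and each panel has its own linear axis. All 5 Perthes points lie above the 3 control points for ASB5 and CHRNE, while control rabbit 3 stands highest for ACTA1, CKM, TTN and NEB.

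*ASB5* (gene ID 100302410) encodes an ankyrin repeat and SOCS box protein, a class of adaptors that bring substrates to a ubiquitin ligase, and is expressed in muscle and its satellite cells. It had 878, 81, 640, 14 and 293 counts in the libraries of Perthes rabbits 1 to 5 and 0, 1 and 3 counts in control rabbits 1 to 3. Perthes rabbits 1 and 3 stood far above the others, Perthes rabbit 4 was lowest of its group, and the groups did not overlap. The mean was 13.3 ± 12.8 CPM (SD, n = 5) in Perthes and 0.0450 ± 0.0506 CPM (SD, n = 3) in control. Because no control library exceeded the floor of 3 counts, the fold was set against that floor in each library, and *ASB5* was at least 128-fold higher in Perthes, a bound that covers counting error only. It passed the filter on low counts through the Perthes libraries alone. Within Perthes its highest CPM was 58.2 times its lowest, the widest range of the 9 listed members.

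*MYH6* (100125987) encodes alpha myosin heavy chain, the fast myosin of the heart atrium that also occurs in some specialised muscles. It had 142, 42, 63, 12 and 64 counts in the libraries of Perthes rabbits 1 to 5 and 12, 14 and 17 in the controls. Perthes rabbit 4 lay among the controls and the other Perthes rabbits above them, so the groups overlapped through that library. The mean was 2.26 ± 1.60 CPM (SD, n = 5) in Perthes and 0.496 ± 0.0684 CPM (SD, n = 3) in control, with a log2 fold change of 2.18 (standard error 0.67). *MYH7*, the slow myosin gene that lies beside *MYH6* and is nearly identical to it, was not analysed here, and reads that fit both genes make the level of *MYH6* uncertain. Other genes of heart muscle were low, since the 8 listed rows of a cardiac list summed to 5.84 to 8.48 CPM in Perthes and 3.77 to 4.82 CPM in control. In that list *TNNT2*, the troponin T of heart, was lower in Perthes by edgeR, with 0 to 3 counts against 20 to 38 (log2 fold change -4.32, standard error 0.72, adjusted p = 0.0129).

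*CHRNE* (100349697) encodes the epsilon subunit that replaces the fetal gamma subunit in the acetylcholine receptor of mature neuromuscular junctions. It had 734, 598, 680, 447 and 495 counts in the libraries of Perthes rabbits 1 to 5 and 160, 170 and 207 in the controls. The groups were well apart, and the highest Perthes CPM was 1.54 times the lowest, the narrowest Perthes range of the listed members. The mean was 21.1 ± 4.23 CPM (SD, n = 5) in Perthes and 6.20 ± 0.610 CPM (SD, n = 3) in control, a log2 fold change of 1.76 (standard error 0.21). The other subunits of the receptor had few counts. *CHRNA1* had 14 to 31 counts in Perthes and 20 to 31 in control, and *CHRNB1* had 37 to 63 and 29 to 56. *CHRND* had 1 to 11 counts in Perthes and 0 to 1 in control, and *CHRNG* had 3 counts or fewer in every library.

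*ACTA1* (100009506) encodes skeletal alpha actin, the protein of the thin filament. It had 3, 9, 10, 17 and 43 counts in the libraries of Perthes rabbits 1 to 5 and 24, 10 and 213 in control rabbits 1 to 3. Control rabbit 3 held 86.2% of the control counts, and the other controls lay within the Perthes range. The mean was 0.578 ± 0.528 CPM (SD, n = 5) in Perthes and 2.76 ± 3.75 CPM (SD, n = 3) in control. The log2 fold change of -2.25 (standard error 0.97) became -0.06 without control rabbit 3.

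*TTN* (100008570) encodes titin, the spring that spans the sarcomere from its edge to its middle. It had 458, 198, 180, 63 and 324 counts in the libraries of Perthes rabbits 1 to 5 and 119, 476 and 1539 in the controls. Control rabbit 3 held 72.1% of the control counts, Perthes rabbit 4 was lowest, and the groups overlapped. The mean was 8.56 ± 4.96 CPM (SD, n = 5) in Perthes and 24.1 ± 24.3 CPM (SD, n = 3) in control. The log2 fold change was -1.49 (standard error 0.72), and -0.30 without control rabbit 3.

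*NEB* (100328572) encodes nebulin, the ruler of the thin filament. It had 42, 20, 38, 168 and 44 counts in the libraries of Perthes rabbits 1 to 5 and 34, 20 and 213 in the controls. In each group 1 library stood far above the rest, Perthes rabbit 4 and control rabbit 3. The log2 fold change was -0.43 (standard error 0.85), and 1.21 without control rabbit 3, so its direction rests on that library.

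*MYBPC1* (100353416) encodes slow myosin-binding protein C of the thick filament. It had 690, 244, 331, 80 and 356 counts in the libraries of Perthes rabbits 1 to 5 and 273, 174 and 276 in the controls. The control rabbits lay inside the Perthes range, whose top was rabbit 1 and whose bottom was rabbit 4. The mean was 11.9 ± 7.39 CPM (SD, n = 5) in Perthes and 8.36 ± 1.94 CPM (SD, n = 3) in control, a log2 fold change of 0.51 (standard error 0.53). The table of the authors attaches to this row phospholipid biosynthesis and phosphotransferase terms, which are the functions of the enzyme encoded by the neighbouring *CHPT1* and not those of a sarcomere protein. Whether the row holds reads of *CHPT1* was not tested.

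The energy and oxygen genes were close to the counting floor. *CKM* (100009056), muscle creatine kinase, had 21, 4, 5, 2 and 18 counts in the libraries of Perthes rabbits 1 to 5 and 2, 1 and 48 in the controls. Control rabbit 3 held 94.1% of the control counts, and the log2 fold change of -0.71 (standard error 1.08) turned to 2.61 without it. *MB* (100351487) had 1, 1, 1, 2 and 2 counts in Perthes and 4, 0 and 2 in control, did not pass the filter, and is given no fold. For the fast troponin T that *TNNT3* encodes, a row named *TNNT1* (103347435) carries the gene ID that RefSeq assigns to *TNNT3*. It had 12, 6, 21, 10 and 25 counts in the libraries of Perthes rabbits 1 to 5 and 5, 40 and 31 in the controls, which overlap. The authors' protein annotation of that row also names fast skeletal troponin T, but as its symbol is *TNNT1* its values are not counted as a member's.

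The members differed in the library in which they stood highest. Among the Perthes rabbits, 5 of the 9 listed members were highest in rabbit 1 (*ASB5*, *MYH6*, *CKM*, *TTN* and *MYBPC1*) and 6 were lowest in rabbit 4 (*ASB5*, *MYH6*, *CHRNE*, *CKM*, *TTN* and *MYBPC1*). No share over all genes was taken for this order within Perthes, so nothing is read from it. Over all 8 libraries, 4 members were highest in control rabbit 3 (*ACTA1*, *CKM*, *TTN* and *NEB*) and 3 in Perthes rabbit 1 (*ASB5*, *MYH6* and *MYBPC1*). Of all 18145 genes with 10 counts or more, 6.84% were highest in control rabbit 3 and 20.9% in Perthes rabbit 1. The summed CPM of the members was 100, 44.8, 71.5, 29.3 and 55.8 in Perthes rabbits 1 to 5 and 22.4, 30.5 and 83.7 in control rabbits 1 to 3. The groups overlapped, at 60.3 ± 27.1 CPM (SD, n = 5) in Perthes and 45.6 ± 33.3 CPM (SD, n = 3) in control. The make-up of the sum also differed between libraries, by a grouping made after values had been seen. *ASB5*, *MYH6* and *CHRNE* gave 52% to 71% of the members' counts in the Perthes libraries and 9.02% to 27.4% in the controls. *TTN* gave 7.83% to 19.8% of the members' counts in Perthes and 18.9%, 55% and 61.1% in control rabbits 1 to 3.

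**Figure D2:**
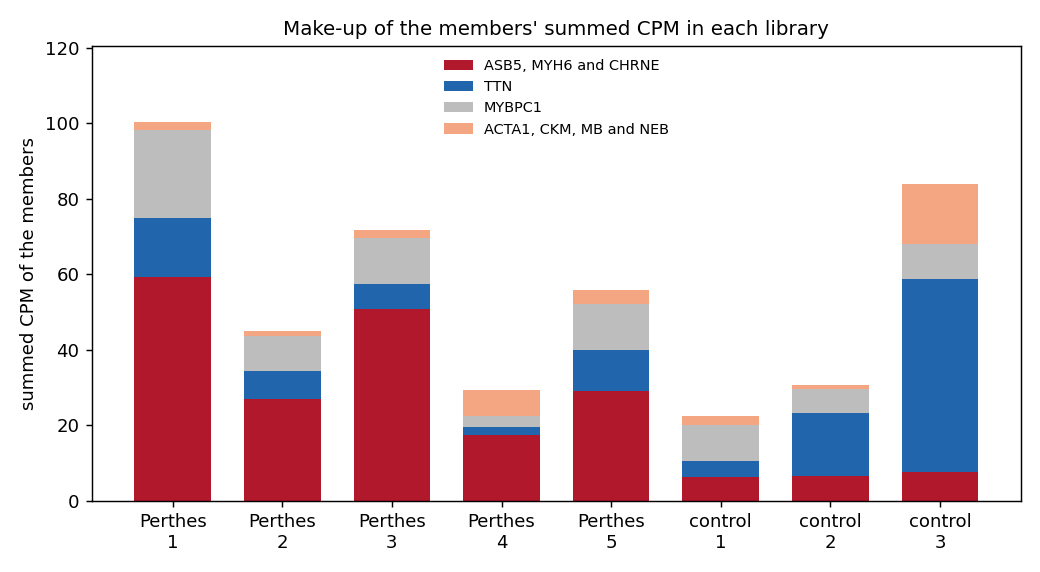
Stacked bars of the members' CPM in each library, from 0, with ASB5, MYH6 and CHRNE together, then TTN, MYBPC1 and the other members. CPM is not scaled for gene length, so a segment is compared between libraries only. The summed CPM reaches 100 in Perthes rabbit 1 and 83.7 in control rabbit 3, the first mostly from ASB5, MYH6 and CHRNE and the second mostly from TTN.

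Many fibre genes stood highest in the library of control rabbit 3. Among the 118 rows of the listed members and of 9 lists of other skeletal muscle genes, 15 had at least 10 counts in that library and a CPM there over 2 times that of any other library, which is 12.7% of those rows against 0.217% of all gene rows (44 of 20255). In the other 7 libraries 0 to 5 of the 118 rows stood out in this way. The measure was chosen after the values were seen. Of the 15 rows, 3 were members (*TTN*, *ACTA1* and *CKM*). The rest held genes of the fast fibre, of the calcium store and of the Z-disc, the plate that anchors thin filaments. A row named *MYH4* (100125991), whose gene ID RefSeq gives to *MYH1*, a fast myosin heavy chain, had 245 counts in control rabbit 3 and 1 to 28 elsewhere. A row described as a myosin-2 gene (LOC100008687), outside the lists, had 121 counts there and 0 to 3 elsewhere. Myosin genes of this cluster are alike in sequence and can share reads, so the split among these rows is uncertain. *ATP2A1*, the calcium pump of fast fibres, had 103 counts in control rabbit 3 and 2 to 23 elsewhere. *SLN*, which encodes the pump's inhibitor sarcolipin, had 21 counts there and 0 to 2 elsewhere, and *MYLPF*, a regulatory light chain of fast myosin, had 24 and 0 to 9. *ASB5*, in contrast, had 3 counts in control rabbit 3, and *MYH6* had 17.

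**Figure D3:**
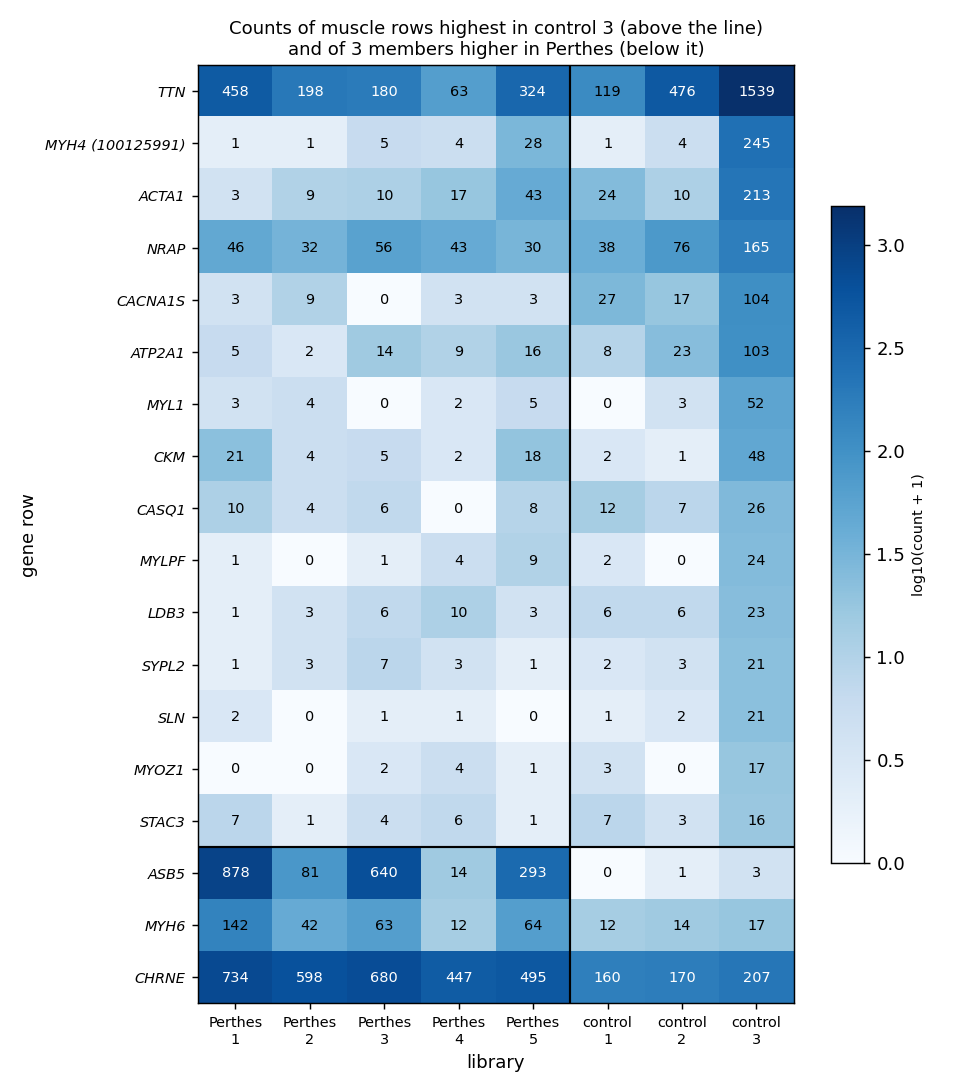
Counts in each library of the 15 muscle rows whose CPM in control rabbit 3 was over 2 times that of any other library (above the line), and of ASB5, MYH6 and CHRNE (below it). Rows are genes, columns are libraries, the number is the count and the shade is log10(count + 1). The last column is darkest in each upper row, with 1539 counts for TTN and 16 for STAC3, whereas ASB5 has 3 counts there.

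The other skeletal muscle genes, which are not among the members, showed changes in both directions. Their lists were chosen with earlier results of these data known, so the calls and shares below are not independent of that knowledge. Of 140 genes in the 9 lists, 109 rows were found, 62 passed the filter, and 9 had 3 counts or fewer in every library. A gene was called at an adjusted p below 0.05 (edgeR quasi-likelihood F-test, Benjamini-Hochberg over 15305 genes) with a log2 fold change beyond 1. By this rule 7 of the 62 rose in Perthes, 11.3% against 4.21% of all genes tested, and 5 fell, 8.06% against 6.72% of all genes tested. Their median log2 fold change was 0.08. The genes that rose were *TPM2*, *FLNC*, *MYPN*, *FABP3*, *FBXO32*, *KBTBD12* and *SSPN*, and the genes that fell included *MYOM3*, *CACNA1S*, *PAX7* and *DYSF*. DESeq2 called 7 higher and 8 lower. The edgeR calls depend on the libraries: 2 higher and 1 lower were called without Perthes rabbit 3 or Perthes rabbit 5, 1 and 0 without control rabbit 1, 0 and 0 without control rabbit 2, and 6 and 3 without control rabbit 3. At an unadjusted p under 0.05 with the same fold, edgeR had 5 higher and 10 lower without control rabbit 1, and 7 higher and 13 lower without control rabbit 2.

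In the thin filament list 1 of 6 tested genes rose. *TPM2*, beta tropomyosin, had 1427, 639, 885, 649 and 1194 counts in the libraries of Perthes rabbits 1 to 5 and 220, 236 and 361 in the controls (log2 fold change 1.85, standard error 0.30, adjusted p = 0.0123 by edgeR). Every Perthes rabbit lay above every control. *TPM1* and *TPM3*, the other tropomyosins of the list, had log2 fold changes of 0.46 (standard error 0.29) and -0.03 (standard error 0.23), with adjusted p of 0.309 and 0.940 by edgeR.

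In the list of Z-disc and giant proteins 2 of 9 tested genes rose and 1 fell. The gene that fell is not reported here. *FLNC*, the filamin that crosslinks actin at the Z-disc, had 1415, 962, 1218, 1588 and 1467 counts in Perthes and 140, 265 and 440 in control (log2 fold change 2.29, standard error 0.34, adjusted p = 0.0118 by edgeR). It was apart between the groups, and Perthes rabbit 4, lowest among the Perthes rabbits for *ASB5* and *CHRNE*, was its highest library. *MYPN*, myopalladin, had 85, 40, 12, 7 and 24 counts in Perthes and 4, 4 and 5 in control (log2 fold change 2.93, standard error 0.85, adjusted p = 0.0478 by edgeR). Its call was lost with library totals alone (adjusted p = 0.0556 by edgeR), with no filter on low counts (0.0505) and without any single library other than Perthes rabbit 4, with adjusted p of 0.0567 to 0.147. *DES*, desmin, was at 0.46 on the log2 scale (standard error 0.35, adjusted p = 0.395 by edgeR).

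In the thick filament and M-band list, the M-band being the midline of the sarcomere, 1 of 4 tested genes fell. *MYOM3*, a myomesin, had 0, 86, 23, 13 and 4 counts in Perthes and 462, 259 and 221 in control (log2 fold change -3.56, standard error 1.01, adjusted p = 0.0458 by edgeR). Its call was lost without Perthes rabbit 3, 4 or 5 or any 1 control, with adjusted p of 0.0634 to 0.148 by edgeR. *MYOM1*, its relative, had 296 to 381 counts in Perthes and 257 to 375 in control, with a log2 fold change of 0.09 (standard error 0.16). *MYLK2*, the myosin light chain kinase of skeletal muscle, had 2 to 12 counts in Perthes and 23 to 35 in control, and an adjusted p of 0.0527 by edgeR kept it below the call.

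Among genes that couple excitation to contraction, 1 of 9 tested genes fell. *CACNA1S*, the voltage sensor of the muscle calcium channel, had 3, 9, 0, 3 and 3 counts in Perthes and 27, 17 and 104 in control (log2 fold change -3.66, standard error 0.81, adjusted p = 0.0214 by edgeR). The groups did not overlap, yet without control rabbit 3 its log2 fold change was -2.56 with an adjusted p of 0.0735 by edgeR. *RYR1*, the calcium release channel that it opens, had 150 to 208 counts in Perthes and 247 to 303 in control (log2 fold change -0.61, standard error 0.19, adjusted p = 0.0582 by edgeR). *MYLK3*, a myosin light chain kinase of heart, had 28, 564, 113, 148 and 48 counts in Perthes and 1064, 1074 and 1143 in control (log2 fold change -2.52, standard error 0.81, adjusted p = 0.0664 by edgeR).

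Of the 4 tested genes of the neuromuscular junction list, edgeR called 0, with 0 at an unadjusted p under 0.05, and DESeq2 called 0. *LRP4*, the receptor for agrin, which bone cells also express, had a log2 fold change of 0.08 (standard error 0.29), and *COLQ*, the collagen tail of acetylcholinesterase, one of -0.72 (standard error 0.33). *MUSK*, the kinase that LRP4 activates, had 2, 4, 13, 0 and 1 counts in Perthes and 0 in every control.

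Among myogenic factors 1 of 5 tested genes fell. *PAX7*, the transcription factor that defines muscle satellite cells, had 6, 17, 9, 9 and 18 counts in Perthes and 47, 59 and 34 in control (log2 fold change -1.94, standard error 0.42, adjusted p = 0.0197 by edgeR). It was apart between the groups, opposite in direction to *ASB5*. *MEF2C* and *MEF2D*, which many tissues express, had log2 fold changes of 0.13 and 0.11, with standard errors of 0.29 and 0.20. The myogenic factors *MYOD1*, *MYF5* and *MYOG* were not analysed here.

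Among the muscle ubiquitin ligase adaptors, the class of *ASB5*, 2 of 9 tested genes rose. *FBXO32* (atrogin-1), an F-box adaptor induced in muscle wasting, had 5372, 3333, 4287, 3024 and 4418 counts in Perthes and 1167, 1703 and 2648 in control (log2 fold change 1.19, standard error 0.27, adjusted p = 0.0227 by edgeR). *KBTBD12*, a kelch family adaptor, had 229, 122, 220, 86 and 164 counts in Perthes and 59, 51 and 68 in control (log2 fold change 1.50, standard error 0.34, adjusted p = 0.0228 by edgeR). Both were apart between the groups, and both were lowest among Perthes rabbits in number 4, as *ASB5* was. Other ASB genes were not called by edgeR. *ASB8* was at -0.61 on the log2 scale (standard error 0.21, adjusted p = 0.0821 by edgeR), *ASB2* had 7 to 31 counts in Perthes and 8 to 26 in control, and *ASB11*, *ASB14*, *ASB15*, *ASB16* and *ASB18* had 0 to 6 counts in every library. *TRIM63*, the other ubiquitin ligase gene known from muscle wasting, had 2 to 3 counts in Perthes and 5 to 17 in control.

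In the sarcolemma list, the fibre's surface membrane, 1 of 9 tested genes rose and 1 fell. *SSPN*, sarcospan of the dystrophin complex, had 1074, 655, 761, 1027 and 895 counts in Perthes and 230, 370 and 607 in control (log2 fold change 1.18, standard error 0.29, adjusted p = 0.0284 by edgeR). *DYSF*, dysferlin, a membrane repair protein also made by monocytes, had 1045, 1270, 1645, 2306 and 1519 counts in Perthes and 4932, 2973 and 2605 in control (log2 fold change -1.14, standard error 0.31, adjusted p = 0.0382 by edgeR). Both were apart between the groups. In the energy supply list 1 of 7 tested genes rose, *FABP3*, a fatty acid carrier of heart and muscle, with 259, 117, 185, 77 and 169 counts in Perthes and 21, 20 and 77 in control (log2 fold change 2.08, standard error 0.54, adjusted p = 0.0344 by edgeR). *PYGM*, muscle glycogen phosphorylase, was at -0.81 on the log2 scale (standard error 0.40, adjusted p = 0.194 by edgeR).

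**Figure D4:**
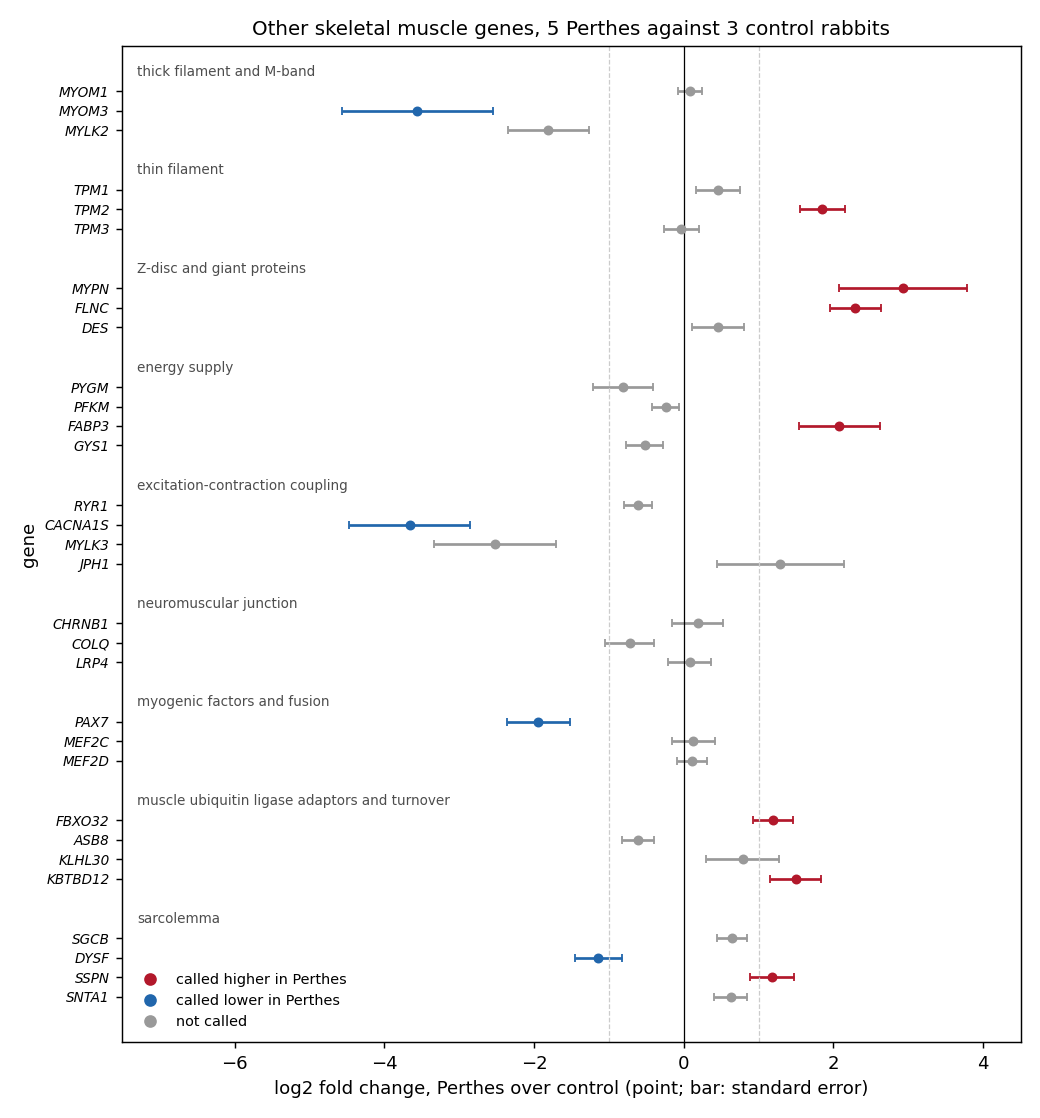
Fitted log2 fold changes (Perthes over control) of skeletal muscle genes other than the members, grouped by list, with their standard errors from 5 Perthes and 3 control libraries. Red marks genes called higher, blue genes called lower and grey genes not called by edgeR, and dashed lines stand at log2 fold changes of 1 and -1. Calls lie on both sides of 0, from MYPN at 2.93 to CACNA1S at -3.66.

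Genes beside the members on the chromosome were compared with them, because reads of an overlapping gene can be counted for its partner. Order was taken from RefSeq (assembly mOryCun1.1), and the pairs were picked after values had been seen. The paper's methods name a different assembly for mapping and annotation. Whether the same genes overlap or adjoin in the annotation that gave the counts was not checked. In the RefSeq order *CHRNE* overlaps *MINK1*, which encodes a widely expressed kinase. *MINK1* had 5795, 3450, 5037, 1802 and 5599 counts in the libraries of Perthes rabbits 1 to 5 and 1505, 1522 and 1411 in the controls (log2 fold change 1.57, standard error 0.35, adjusted p = 0.0210 by edgeR). Like *CHRNE*, it was higher in every Perthes rabbit than in every control and lowest among Perthes rabbits in number 4. The order within Perthes was otherwise not the same. Perthes rabbit 5 had 16.8 CPM of *CHRNE*, near the Perthes low of 16.3. The same rabbit had 191 CPM of *MINK1*, near the Perthes high of 196 and far above the low of 65.6. *PLD2*, a phospholipase gene on the same stretch, also rose (log2 fold change 1.40, standard error 0.33, adjusted p = 0.0261 by edgeR), whereas the platelet receptor gene *GP1BA* on the other side had 0 to 342 counts in Perthes and 994 to 1937 in control. The libraries kept strand, but whether counting used it was not given in the sources used here, and how far *CHRNE* holds reads of *MINK1* was not tested.

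*TTN* lies next to *CCDC141*, a coiled-coil gene, which had 259, 117, 144, 21 and 165 counts in the libraries of Perthes rabbits 1 to 5 and 7, 3 and 11 in the controls (log2 fold change 4.34, standard error 0.80, adjusted p = 0.0137 by edgeR). It was apart between the groups where *TTN* was not, and control rabbit 3, highest for *TTN*, had 11 counts of *CCDC141*. *ASB5* lies next to *WDR17*, with 341, 56, 93, 38 and 309 counts in Perthes and 37, 51 and 33 in control, which overlapped (log2 fold change 2.04, standard error 0.74, adjusted p = 0.0940 by edgeR). *SPATA4*, also beside *ASB5*, had 1 to 5 counts in Perthes and 0 in every control. *CHPT1*, beside *MYBPC1*, had 735 to 1669 counts in Perthes and 1136 to 2038 in control (log2 fold change -0.34, standard error 0.32, adjusted p = 0.494 by edgeR).

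**Figure D5:**
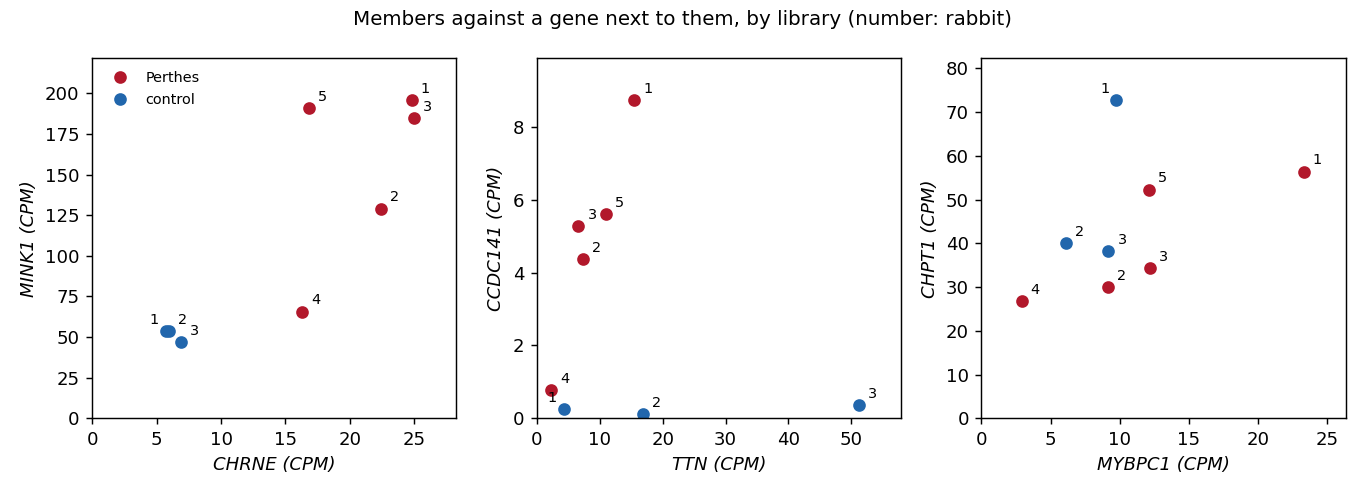
CPM of 3 members (horizontal axes) against the CPM of a gene that overlaps or adjoins each in RefSeq (vertical axes), on linear axes from 0. Each point is 1 library with its rabbit number, red for Perthes and blue for control. MINK1 separates the groups as CHRNE does, CCDC141 separates the groups where TTN does not, and CHPT1 and MYBPC1 overlap between the groups.

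Markers of some other cell types differed between the groups and those of others did not, and their part in the muscle values was not tested. In a smooth muscle list 4 of 9 tested genes rose by edgeR, and its summed CPM was 229 to 553 in Perthes and 152 to 206 in control. *ACTA2*, smooth muscle actin, rose by 3.56 on the log2 scale (standard error 0.62, adjusted p = 0.0133 by edgeR), and *TAGLN*, transgelin, by 3.74 (standard error 0.43, adjusted p = 0.0118 by edgeR). In the same list *MYH11* at 0.66, *MYLK* at -0.14 and *MYOCD* at -1.66 were not called, with adjusted p of 0.273, 0.811 and 0.114 by edgeR. Smooth muscle cells and myofibroblasts also make *TPM2* and *FLNC*. In a macrophage list 5 of 9 tested genes rose and 2 fell, and its summed CPM was 7174, 5143, 5283, 792 and 5829 in Perthes rabbits 1 to 5 and 541 to 697 in the controls. Much of that sum was 1 gene, *GPNMB*, with 5491, 4187, 3992, 314 and 4236 CPM in Perthes rabbits 1 to 5. In the controls *GPNMB* had 16 to 23.3 CPM, so the difference between the group sums rests largely on it. Perthes rabbit 4 was lowest of its group for this list. In an osteoclast list 2 of 8 tested genes rose. In the osteoblast, cartilage, adipocyte and endothelium lists edgeR called 0 genes, with 2, 3 and 1 higher and 1 lower at an unadjusted p under 0.05 in the osteoblast, cartilage, endothelium and adipocyte lists, and DESeq2 called 1, 0, 1 and 1 of those genes. The tendon and ligament list, tissue that joins muscle to bone, summed to 732 to 2185 CPM in Perthes and 413, 627 and 1166 CPM in control rabbits 1 to 3, with 0 of 5 tested genes called by edgeR, 0 at an unadjusted p under 0.05 and 0 by DESeq2. Erythroid markers summed to 6835 to 7861 CPM in control and 675 to 3422 CPM in Perthes, with 1 of 11 tested genes called lower by edgeR, 11 lower at an unadjusted p under 0.05 and 5 called lower by DESeq2. Neutrophil markers summed to 6751 to 22330 CPM in control and 27.4 to 1802 CPM in Perthes, with 3 of 7 called lower by edgeR, 7 lower at an unadjusted p under 0.05 and 7 called lower by DESeq2. Every Perthes library lay below every control library for each of these 11 and 7 genes. The share of all genes tested that lay so was not taken, so nothing is read from that count. Over all genes tested, edgeR called 4.21% higher and 6.72% lower in Perthes.

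Muscle microRNAs offer a readout that the choice of members did not use. They are a handful of small RNAs that muscle makes in abundance, and several lie inside myosin genes. Small RNA libraries of Perthes rabbits 1 to 3 were used, with 2287350 to 2535769 miRNA reads, and the other 5 small RNA libraries were not analysed here, so they are not compared with control. Per the study's methods, both kinds of library were made from portions of RNA of each sample. miR-206-3p, the form made in skeletal muscle, had 9710, 5781 and 11394 reads, or 450, 267 and 518 RPM (reads scaled to library size) as deposited. It ranked 50 to 59 among 866 listed miRNAs. miR-1-3p, which skeletal and heart muscle share, had 1468, 783 and 1648 reads (68, 36.2 and 75 RPM). Both were lowest in Perthes rabbit 2, which of these rabbits also had the lowest count of *ASB5*, *MYH6*, *CHRNE*, *CKM*, *NEB* and *MYBPC1*, while *TTN* was lowest in Perthes rabbit 3, *ACTA1* in Perthes rabbit 1, and *MB* had 1 count in each. miR-133a-3p had 415, 495 and 667 reads, and miR-499-5p, encoded within a slow myosin gene, had 196, 81 and 202. miR-208a-3p, encoded within an intron of *MYH6*, had 0, 6 and 0 reads, where *MYH6* had 142, 42 and 63 counts. A count of 0 allows up to 3 reads, so miR-208a-3p was at or near the limit of detection in these libraries. miR-486-5p, a muscle and red cell miRNA, had 347, 502 and 423 reads. Unlike miR-206-3p, miR-1-3p and miR-499-5p, which were lowest in Perthes rabbit 2, miR-133a-3p and miR-486-5p were lowest in Perthes rabbit 1. Only 3 rabbits are compared, so nothing is read from which of them was lowest.

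Genes whose log2 CPM followed that of the members over the 8 libraries were named by Pearson's r, as a description with no test, since the libraries share the group contrast. Closest to the mean profile of the 8 tested members were *PIGB* (r = 0.948), *INTS9* (r = 0.942), *SEPTIN3* (r = 0.942), *FAM210A* (r = 0.939), *EFCAB11* (r = 0.938) and *DLD* (r = 0.934), followed by *SWAP70*, *NIPA1*, *CD44* and *TNFSF15* at 0.920 to 0.925. None of these 10 is a sarcomere gene. Member by member, *ASB5* was nearest to *MEST* (r = 0.992), *ACYP2* (r = 0.992) and *KBTBD12* (r = 0.990), *MYH6* to *HNMT* (r = 0.994), and *PODN* (r = 0.983) was among the 3 nearest to *CHRNE*. The 3 genes nearest to *ACTA1* were *RASGEF1C* (r = 0.926), *TRIT1* (r = 0.887) and the calcium pump gene *ATP2A1* (r = 0.788). Those nearest to *CKM* were *PRELID3B* (r = 0.895), *INTS9* (r = 0.879) and *HSPB7* (r = 0.871), the last a small heat shock protein gene of muscle. *TTN* was nearest to *ATG4A* (r = 0.93), *NEB* to *EPHA1* (r = 0.93) and *MYBPC1* to *RNASE6* (r = 0.982). Members were left out of these rankings, and the genes near each member were picked after values had been seen.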

How the data were processed

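The members and the gene lists were chosen with earlier results of these data known. Total RNA libraries of 5 Perthes and 3 control rabbits and small RNA libraries of Perthes rabbits 1 to 3 were used. Groups and rabbit numbers were read from the labels, and the third control was numbered 3 from its code. Per the labels and the paper's methods, the authors used HISAT2 2.0.4 for mapping and RSEM 1.1.17 with HTSeq 1.99.2 for quantification. The authors deposited the gene values in the form of expected counts, not normalized. A further 8 per-sample columns repeat them and were not used. For small RNA, the authors deposited raw read counts per miRNA and RPM values, each a count over a library total that is larger than the sum of the listed miRNAs.

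Expected counts were rounded to whole numbers. Under R 4.3.3, edgeR 4.0.16 gave the TMM scaling, the quasi-likelihood F-test and the low-count filter (filterByExpr, by group). P-values were adjusted by Benjamini-Hochberg over 15305 tested genes. A standard error is the size of the log2 fold change divided by the square root of F. CPM includes the TMM factors, and a prior count of 2 was added before log2. The biological coefficient of variation was 0.361, so at 26757087 to 29461482 counts per library the spread between rabbits limited precision, except near the floor of 3 counts. The method was tested on simulated data before use.

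Genes named were the members, every called gene and the 3 tested genes with the highest mean CPM in each of 9 muscle lists, the 2 highest of 11 lists of other cell types (a few of which are printed), and the 10 tested genes closest to the members' mean profile. Others, such as receptor subunits, ASB genes, neighbours, rows that stood out in control rabbit 3 and 3 genes close to each member, were chosen after their values were seen. RefSeq gene IDs (assembly mOryCun1.1) matched 16307 of 20255 rows and named 3 list genes. Alternatives were DESeq2 1.42.0, RLE size factors, library totals alone, no filter, at least 10 counts in every library, the study's thresholds (log2 fold changes past 2 at an adjusted p under 1e-05), the replicate number as a block, and leaving out each library. A few genes that the naming rule selects are not reported here.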

Additional observations from a re-analysis of the deposited data

Results flagged for a closer look

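In 6 of 62 values screened over the 5 Perthes libraries, the highest library stood apart from the other 4 by Dixon's criterion. For independent, normally distributed values chance alone would single out about 1 in 20, at the high or the low end. The values screened are CPM of related genes and lists, so that rate need not hold for them. *NEB* was at 6.11 CPM in Perthes rabbit 4 and at 0.749 to 1.50 in the others, and *MEF2D* was at 88.1 CPM in the same rabbit and at 52.7 to 60.7 in the others. The summed CPM of the tendon and ligament list was also highest there, at 2185 against 732 to 1083. In Perthes rabbit 2, *MYOM3* was at 3.22 CPM against 0 to 0.845 in the others, and *MYLK3* at 21.1 CPM against 0.946 to 5.38. The summed CPM of the erythroid marrow list in Perthes rabbit 2 was 3422, against 675 to 1098 in the others. The criterion was applied to groups of 4 or more, so the 3 controls, and with them the library of control rabbit 3, were not screened. Whether *NEB* moved with the tendon genes in Perthes rabbit 4 was not tested.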

How the results depend on the processing

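Directions of the members held under RLE size factors, library totals alone, no filter and DESeq2, and 2 members had groups that do not overlap under each scaling. Leaving out libraries moved the results most. The log2 ratio of summed member CPM was 0.40 and ran from 0.08 to 1.19, and the median log2 fold change of the tested members was 0.04 and ran from -0.28 to 1.53, both highest without control rabbit 3. That median was -0.41 by DESeq2, -0.03 with library totals alone, 0.49 with at least 10 counts in every library and 0.52 with the replicate block. Without that library *CKM* was at 2.61 (range -1.25 to 2.61) and *NEB* at 1.21 (range -1.25 to 1.21). Members with groups apart numbered 2 to 3, the third being *MYH6* without Perthes rabbit 4 and *CKM* without control rabbit 3. Calls by edgeR ran from 0 to 832 higher and 0 to 1337 lower over all genes (645 and 1028 with all libraries), and from 0 to 7 higher and 0 to 6 lower among other muscle genes. Without control rabbit 2 all were 0, with 958 and 1416 genes at an unadjusted p under 0.05 and the same fold. Fewer samples entered that fit, and the cause was not tested further. At least 10 counts in every library left 2 muscle genes called lower, as fewer genes were tested. DESeq2 called 993 genes higher in all and 8 muscle genes lower. At the study's thresholds edgeR called 0 in every count, with 1039 and 1481 at an unadjusted p under 0.05 and a log2 fold change beyond 1, and DESeq2 called 101 higher and 95 lower, of which 1 and 0 were other muscle genes.

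Replicate numbers did not pair the rabbits, since same-numbered libraries correlated at -0.317, 0.161 and -0.238 and not every library was closest to its own number. With the replicate block edgeR called 0 genes in each count, with 944 higher and 1249 lower at an unadjusted p under 0.05 and the same fold, and *CKM* was at 0.30. Depth limits *MB*, *CKM* and *ASB5* in control, where libraries hold few counts.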
